A study of Mus musculus with 14 samples.

Results

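Integrins are the paired receptors through which blood cells hold on to matrix and to other cells. The genes described here are the mouse integrin subunits among 21887 protein-coding genes on chromosomes 1 to 19, X and Y. They were chosen by symbol, as Itga or Itgb followed by a number or letter. Itga2b, Itgb3 and Itgam were kept out, because they served as lineage markers. The rule left 24 subunit genes. Its letters also took Itgb3bp, which encodes a centromere protein and no integrin, so the rule's 25 symbols became 24 genes. Each gene was read over its annotated span plus 2 kb on either side.

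The study profiled bone marrow progenitors of C57BL/6 mice, kept after a kit had depleted cells carrying lineage markers. The control group was UTX wild type (WT) and the other group UTX knockout (KO), in which the gene Kdm6a was targeted. UTX, its product, removes methyl groups from lysine 27 of histone H3 and works together with enzymes that mark enhancers. H3K27ac, a mark of active promoters and enhancers, and H3K27me3, the repressive mark set by Polycomb, were measured by chromatin immunoprecipitation and sequencing in 2 WT and 2 KO libraries each. UTX itself was measured in 2 WT libraries, and 1 IgG library, labelled as a control for BCOR, served as background. The series also lists an IgG control and an input labelled for UTX, which were not used here. The labels give no age and no Cre driver or deleted exon, and do not say whether numbered libraries came from separate animals, so the p-values measure only the spread between libraries, which may be technical.

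An integrin is 1 alpha and 1 beta chain. The beta2 chain pairs with the alpha chains of leukocytes (alphaL, alphaM, alphaX and alphaD) and binds ICAM molecules. Alpha4 pairs with beta1 to bind VCAM-1 and fibronectin, and with beta7 to bind MAdCAM-1. Alpha5 with beta1 is the classical fibronectin receptor, alphav pairs with several beta chains to bind vitronectin and latent TGF-beta, and alpha4, alpha5 and beta1 are known for holding stem and progenitor cells in the marrow. Of the other alpha chains, alpha1, alpha2, alpha10 and alpha11 bind mainly collagens, and alpha3, alpha6 and alpha7 mainly laminins. Alpha8, alpha9 and alphaE bind other ligands, named further on.

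In outline, H3K27ac reads fell in KO in regions at the 5' ends of Itga4, Itga5, Itgb1 and Itgb7 and at the lower-coordinate end of Itga6, the value of Itgb1 turning sign per covered length. They rose at the 5' ends of Itgav and Itga1, inside Itgav and Itga9, at the lower-coordinate end of Itgb2 and beyond the upper-coordinate end of Itgb4. Itgb5 had H3K27ac islands at its 5' end in both WT libraries and in neither KO library. No integrin passed the test for H3K27me3.

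The 250 bases before the promoter start that RefSeq lists are shown for 6 of these genes. In each, an H3K27ac region that was called or was lost in KO, described further on, covers them. The regions are longer than these bases, and a change over the bases alone was not tested. They are from RefSeq, build GRCm38.p6, written 5' to 3' along the gene, and lie at chr2:79255176-79255425 (Itga4, plus strand), chr15:103366792-103367041 (Itga5, minus strand), chr8:128685404-128685653 (Itgb1, plus), chr13:115101965-115102214 (Itga1, minus), chr2:83724147-83724396 (Itgav, plus) and chr16:33829415-33829664 (Itgb5, plus). The listed start of Itgav lies inside the annotated gene span, under its UTX islands. Capitals mark the motifs searched on both strands (GATA letters AGATAA and TGATAA, the ETS core GGAAGT, the PU.1 form GAGGAAGT that contains it, the RUNX letters TGTGGT, the Sp1 letters GGGCGG and TATAAA).
Itga4: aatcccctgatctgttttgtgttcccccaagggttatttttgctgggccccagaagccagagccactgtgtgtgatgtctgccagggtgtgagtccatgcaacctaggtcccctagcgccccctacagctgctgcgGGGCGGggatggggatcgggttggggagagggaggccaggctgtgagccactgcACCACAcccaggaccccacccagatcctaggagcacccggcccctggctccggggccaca
Itga5: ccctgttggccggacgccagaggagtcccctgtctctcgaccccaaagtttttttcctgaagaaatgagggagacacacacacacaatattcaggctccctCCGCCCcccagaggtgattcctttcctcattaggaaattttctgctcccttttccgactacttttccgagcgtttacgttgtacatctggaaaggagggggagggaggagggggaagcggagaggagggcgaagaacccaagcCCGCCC
Itgb1: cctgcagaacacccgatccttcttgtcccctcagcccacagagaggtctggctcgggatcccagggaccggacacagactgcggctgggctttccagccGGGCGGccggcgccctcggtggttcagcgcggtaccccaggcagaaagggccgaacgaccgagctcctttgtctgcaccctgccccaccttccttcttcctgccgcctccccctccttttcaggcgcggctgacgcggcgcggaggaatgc
Itga1: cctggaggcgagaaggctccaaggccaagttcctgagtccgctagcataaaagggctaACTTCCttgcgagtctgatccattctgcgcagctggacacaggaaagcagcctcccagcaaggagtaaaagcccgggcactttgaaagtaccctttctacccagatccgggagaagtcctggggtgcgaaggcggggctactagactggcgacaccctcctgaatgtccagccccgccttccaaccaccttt
Itgav: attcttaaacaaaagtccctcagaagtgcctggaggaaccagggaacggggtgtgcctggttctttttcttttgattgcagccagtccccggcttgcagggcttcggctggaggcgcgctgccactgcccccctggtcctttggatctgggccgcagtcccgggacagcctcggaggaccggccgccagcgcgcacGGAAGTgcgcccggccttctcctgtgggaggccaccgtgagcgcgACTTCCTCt
Itgb5: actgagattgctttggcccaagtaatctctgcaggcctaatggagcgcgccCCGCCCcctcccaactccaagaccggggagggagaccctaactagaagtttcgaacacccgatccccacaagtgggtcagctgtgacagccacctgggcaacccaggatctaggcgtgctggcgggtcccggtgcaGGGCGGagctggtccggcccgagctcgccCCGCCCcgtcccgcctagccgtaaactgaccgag

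Itga4, Itga5, Itgb1 and Itgb5 hold GGGCGG or its reverse complement in these bases, and Itga4 also holds TGTGGT in reverse. Itga1 holds GGAAGT once in reverse. Itgav holds GGAAGT on each strand, and the reverse copy is part of GAGGAAGT. Over the full RefSeq windows of 300 bases, which add the 50 bases after the start and exist for 17 of the 24 integrins (19 windows), GAGGAAGT occurred in 5 windows (Itga11, Itgav, Itgb2l, Itgb6 and Itgb7), against 3.13% of all 21263 windows. GGAAGT occurred in 7 integrin windows against 24.8% of all, GGGCGG in 8 against 46.2%, and TGTGGT in 3 against 15%. AGATAA occurred in 1 integrin window, that of Itgax, against 9.65% of all, and TGATAA and TATAAA in 0, against 7.6% and 12.6%. These matches describe letters only.

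The data are islands, stretches of enrichment called in each library, with the reads in each. H3K27ac libraries held between 9330823 and 15256696 reads in islands, H3K27me3 libraries between 2347442 and 2743508, the UTX libraries 816567 and 1834418, and the IgG library 154029. A gene's level is the number of reads in all islands that meet its window, scaled to the total island reads of the library (rpm), so a level of 0 means that no island was called there. Levels are not per length and are compared between libraries, not between genes. The targeted gene Kdm6a had H3K27ac of 197.2 and 102.4 rpm in WT and 181.1 and 185.1 rpm in KO, and its H3K27ac does not check the deletion. Markers fixed for the cell types of such a sample differed between the groups in H3K27ac. All 8 stem and progenitor markers had islands in every library and none passed the test. Their summed levels were 1694 and 1627 rpm in WT and 1461 and 1355 rpm in KO. Of 9 erythroid markers, 7 fell and 2 lost their islands, with summed levels of 1095 and 1302 rpm in WT and 343.3 and 365.7 rpm in KO. All 7 B cell markers tested rose (208.6 and 199.5 rpm in WT, 593.2 and 859.0 in KO), as did all 3 eosinophil markers (118.6 and 66.4, then 562.6 and 544.3) and 4 of 9 granulocyte and monocyte markers (747.5 and 836.2, then 1285 and 1099). Of 7 megakaryocyte markers tested 3 fell (795.5 and 757.9, then 531.7 and 445.0), and of 5 mast cell and basophil markers 1 fell (354.7 and 325.4, then 309.4 and 219.6). Of 3 T and NK cell markers tested 0 passed (87.0 and 66.5, then 212.5 and 107.9), with Cd3e, Cd4 and Cd8a at 0 in every library. Of 3 stromal and endothelial markers tested 2 rose (271.8 and 270.1, then 397.1 and 419.4), with Col1a1, Col1a2, Cxcl12, Lepr and Pdgfra at 0. Some of these cell types carry the integrins described here, a change in the number of cells of a type and a change per cell cannot be told apart in such bulk samples, and the part of the markers' shift in each result was not tested.

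Most integrin genes carried H3K27ac in these progenitors. H3K27ac islands were present in all 4 libraries at 17 of 24 integrins (70.8%), against 56.4% of all protein-coding genes. H3K27me3 islands were present in all 4 libraries at 9 (37.5%), against 22.4% of all genes. Both marks in all 4 libraries occurred together at 5 windows (20.8% against 8.68%), those of Itga8, Itga9, Itgad, Itgb4 and Itgb5. No integrin window was free of both marks, whereas 21.4% of all genes were. Integrin genes can be long, and a longer window meets more islands, so these shares were not compared by a test.

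The 5' end itself was taken as 2 kb on either side of it. Of the 17 integrins whose strand is listed, 8 had H3K27ac there in all 4 libraries (Itga1, Itga2, Itga4, Itga5, Itgav, Itgax, Itgb1 and Itgb7), where 49.7% of 17492 genes with a listed strand did. Another 6 had H3K27me3 there in all 4 libraries (Itga3, Itga8, Itga9, Itga11, Itgb5 and Itgb8), against 16.1% of those genes. Of these 6, 5 had no H3K27ac at that place in any library (11.7% of all genes were so), and Itgb5 had it in both WT libraries. H3K27me3 also met the H3K27ac-marked end of Itga1 in WT replicate 2 and KO replicate 1, and that of Itga5 in KO replicate 1. No integrin had both marks there in all 4 libraries, and 2.53% of all genes did. Itga10 and Itgb6 had neither mark there, and Itgb2l had an H3K27ac island in KO replicate 1 only. The strand of Itga6, Itga7, Itgad, Itgae, Itgal, Itgb2 and Itgb4 was not listed, so their ends are given as the lower-coordinate and upper-coordinate end.

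**Figure D1:**
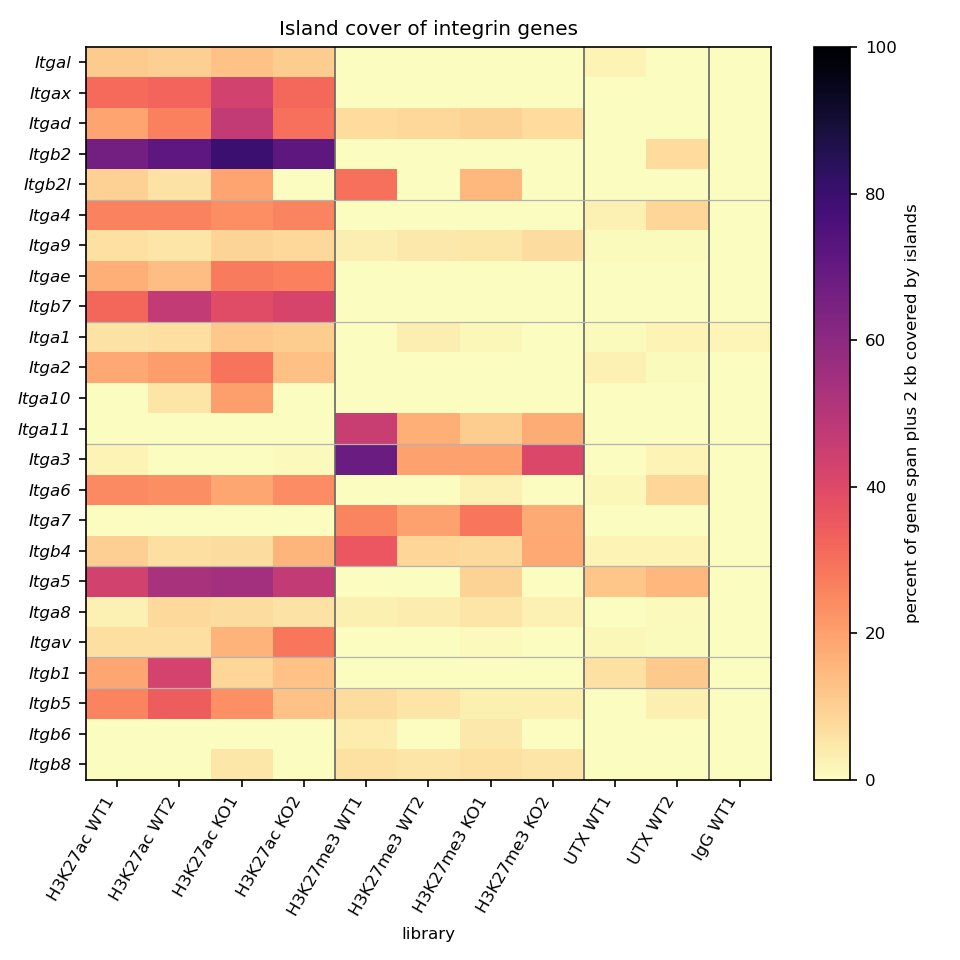
Percent of each integrin gene's span plus 2 kb that islands cover (colour), for 24 integrins (rows, grouped by class) and 11 libraries (columns, WT and KO replicates of H3K27ac and H3K27me3, then UTX and IgG in WT). H3K27ac covers 17 genes in all 4 of its libraries and H3K27me3 covers 9.

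UTX met the windows of 9 of 24 integrins (37.5%) in both UTX libraries, against 39.6% of all genes, and 9 of the 17 with H3K27ac in all 4 libraries (52.9%), against 68.0% of such genes overall. In 6 of the 9 (Itga1, Itga4, Itga5, Itga6, Itgav and Itgb1) the islands of the UTX libraries overlapped. In the other 3 (Itga2, Itga9 and Itgb4) they lay apart. At the Itga4 start replicate 1 had an island of 96 reads (117.6 rpm) and replicate 2 one of 461 reads (251.3 rpm). The Itgb1 start held 101 reads (123.7 rpm) and 229 reads (124.8 rpm). Itga5 held overlapping UTX islands at its start, with 46 and 85 reads, and 4 to 6 kb into the gene, with 51 and 104 reads.

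At 5' ends with H3K27ac in all 4 libraries, UTX islands of both libraries were present at 4 of 8 (Itga4, Itga5, Itgav and Itgb1), against 65.7% of such ends over all genes. At the 6 with H3K27me3 in all 4 libraries there were 0, against 12.1% of such ends over all genes, and replicate 2 alone had an island at the Itgb5 start (110 reads) and the Itga9 start (57 reads). The IgG library met 1 integrin, at the 3' end of Itga1 with 50 reads, away from any UTX island, against 4.32% of all genes.

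Over whole genes, 17 integrins could be tested for H3K27ac (edgeR's quasi-likelihood test with Benjamini-Hochberg adjustment over 12350 genes, threshold 0.05). Of these 2 rose in KO, Itga9 and Itgav, where 8.93% of all genes tested rose, and 2 fell, Itga4 and Itga5, where 9.97% fell. These shares are near the background, so the counts say nothing particular about integrins. The median log2 fold change, KO over WT, was 0.24 for the 17 integrins and 0.01 for all genes tested. Both KO libraries lay above both WT libraries at 7 integrins (37.6% of all genes) and below them at 4 (29.1% of all genes). Of the 21 integrin windows with H3K27ac in any library, 0 lost all islands in KO and 0 gained their first, against 2.22% and 1.69% of all such windows.

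**Figure D2:**
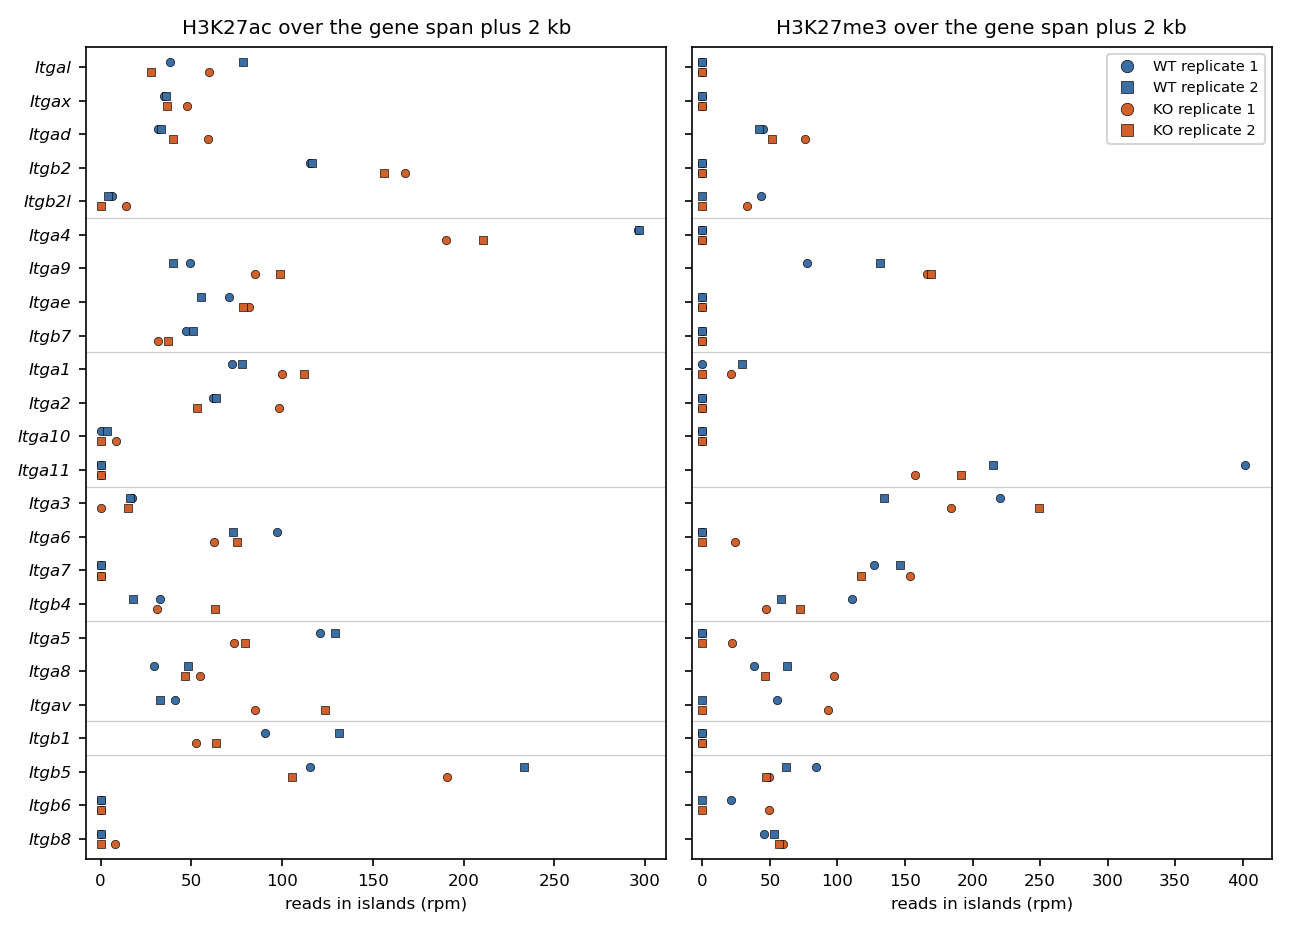
H3K27ac (left) and H3K27me3 (right) of 24 integrin genes, as reads in islands over the gene span plus 2 kb in rpm, 1 point per library (blue WT, orange KO, circles replicate 1, squares replicate 2). The windows differ in length, so points are compared between libraries of a gene; Itga4 has 295.9 and 296.9 rpm of H3K27ac in WT and lies lower in both KO libraries.

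Itga4, the alpha chain of the receptors for VCAM-1 and MAdCAM-1, had 295.9 and 296.9 rpm of H3K27ac in WT and 190.4 and 210.7 rpm in KO. Both KO libraries lay below both WT libraries, a log2 fold change of -0.61 ± 0.09 (SE; edgeR adjusted p = 0.0239). All of these reads lie in 1 region at the 5' end, chr2:79243201-79274800 (mm10), which spans the start, the first 19 kb of the gene and 12 kb before it. Tested as a region, among 18820 regions, its log2 fold change was -0.68 ± 0.08 (edgeR adjusted p = 0.00168), and the call held in each of the 4 fits that left out 1 library. The region was covered by H3K27ac islands over 26 and 31.6 kb in WT and 22.2 and 27.8 kb in KO. Its level per covered kilobase was 11.4 and 9.40 rpm in WT and 8.58 and 7.58 rpm in KO. H3K27me3 had no island at Itga4 in any library.

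Itga5, the alpha chain of the fibronectin receptor, had 120.9 and 129.3 rpm in WT and 73.3 and 79.6 rpm in KO. The groups did not overlap, and the log2 fold change was -0.76 ± 0.11 (edgeR adjusted p = 0.0239). The reads lie in the 5' region chr15:103351401-103367600, with a log2 fold change of -0.83 ± 0.10 (edgeR adjusted p = 0.00179). It was the single called region among integrins that also passed when reads were divided by covered length, at -0.90 (edgeR adjusted p = 0.0409). Its covered length was 11.4 and 14 kb in WT and 14.4 and 12.4 kb in KO, so the islands were about as long and held fewer reads per kilobase (10.6 and 9.23 rpm against 5.09 and 6.42). Only KO replicate 1 had an H3K27me3 island at the Itga5 start, of 22.2 rpm.

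Itgb1 encodes the beta chain shared by alpha4, alpha5 and most other matrix receptors. Its H3K27ac was 90.6 and 131.2 rpm in WT and 52.5 and 63.7 rpm in KO. The groups did not overlap, but the gene-level test did not pass (log2 fold change -0.99 ± 0.24, edgeR adjusted p = 0.0637). Its 5' region chr8:128684401-128700200 held 90.6 and 116.3 rpm in WT and 52.5 and 63.7 rpm in KO and fell by 0.96 on the log2 scale (SE 0.16, edgeR adjusted p = 0.00695). The fall went with shorter islands. Islands covered 9.6 and 15.8 kb in WT and 4.4 and 6.6 kb in KO, while the level per covered kilobase was 9.43 and 7.36 rpm in WT and 11.9 and 9.65 rpm in KO. Divided by covered length the log2 fold change was 0.25 and did not pass (edgeR adjusted p = 0.591). In WT replicate 2 a UTX island of 82 reads lay 8 to 10 kb into Itgb1, in the stretch that H3K27ac islands covered in WT replicate 2, in part in WT replicate 1, and in neither KO library.

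Itgav, the alpha chain of the vitronectin receptors, had 41.3 and 33.0 rpm in WT and 85.2 and 123.8 rpm in KO. Both KO libraries lay well above both WT libraries, a log2 fold change of 1.45 ± 0.22 (edgeR adjusted p = 0.026). For the whole gene divided by covered length the sign turned, to -0.31, and the test did not pass. Its called regions, given next, kept their sign per covered length, at 0.50 (5' end) and 0.098 (inside). Neither passed that way (edgeR adjusted p = 0.49 and 0.892). The 5' region chr2:83722201-83727000 rose from 32.7 and 26.7 rpm to 54.1 and 62.4 rpm (log2 fold change 0.86 ± 0.14, edgeR adjusted p = 0.00556). A region 16 to 26 kb into the gene, chr2:83738001-83748000, rose from 8.57 and 6.29 rpm to 19.6 and 28.2 rpm (log2 fold change 1.58 ± 0.27, edgeR adjusted p = 0.00698). Without WT replicate 2 that inner region did not pass (edgeR adjusted p = 0.0586). Further islands appeared in both KO libraries and in no WT library. One lay 5 to 8 kb into the gene, with 6.77 and 9.26 rpm, and another 36 to 45 kb into it, with 4.67 and 23.9 rpm. The only H3K27me3 islands that met the Itgav window lay beyond its 3' end.

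Itga9, whose product pairs with beta1 and binds tenascin and VCAM-1, had 49.5 and 39.7 rpm of H3K27ac in WT and 85.1 and 98.6 rpm in KO. The groups did not overlap, with a log2 fold change of 1.003 ± 0.141 (SE, edgeR adjusted p = 0.0229). None of this lies at its start, where H3K27me3 was present in all 4 libraries. It is spread over small regions inside the gene, and 1 of them, chr9:118672801-118679800, 66 to 73 kb from the start, passed (10.5 and 11.9 rpm in WT, 20.9 and 24.1 rpm in KO, log2 fold change 0.87 ± 0.22, edgeR adjusted p = 0.0275). That region's call ended in each fit that left out 1 library. The region 44 to 50 kb from the start held 10.5 and 0 rpm in WT and 25.5 and 33.2 rpm in KO. The region 115 to 127 kb from it held 0 and 6.49 rpm in WT and 20.9 and 20.7 rpm in KO. Neither was tested, because 1 WT library had no island there. Another region, 78 to 82 kb from the start, went the other way, with islands of 7.61 and 5.83 rpm in WT and none in KO. The region 214 to 217 kb from the start also lay lower in KO (7.61 and 4.39 rpm in WT, 4.20 and 0 rpm in KO).

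The gene-level calls for Itga4, Itga5 and Itga9 ended in each fit that left out 1 library. That for Itgav held in 1 of the 4 (without KO replicate 1, edgeR adjusted p = 0.0429). Over all genes 1103 rose and 1231 fell with 4 libraries, and 0 passed without WT replicate 2 or with reads divided by covered length.

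**Figure D3:**
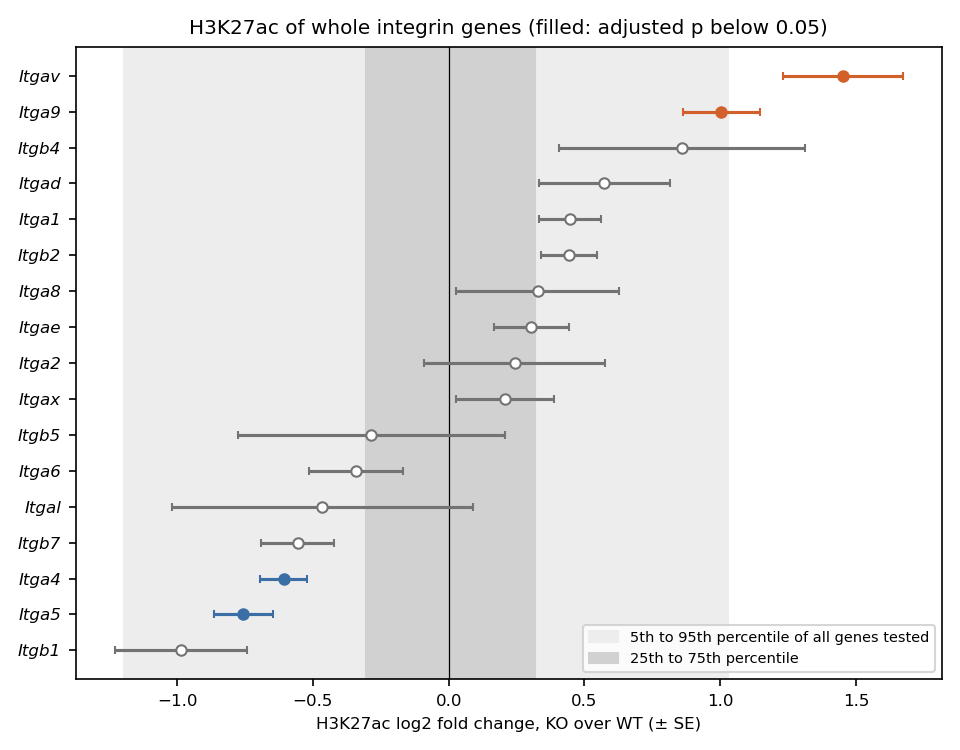
H3K27ac log2 fold change, KO over WT, with its SE, for the 17 integrins tested as whole genes; filled points passed (orange higher, blue lower in KO) and open points did not. Grey bands give the spread of all 12350 genes tested, from -1.20 to 1.03 (5th to 95th percentile). Itgav, at 1.45, lies above it, but at -0.31 when reads are divided by covered length. Its called regions are then at 0.50 and 0.098.

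The other tested integrins did not pass at gene level. Among the beta2 class, Itgb2, the shared beta chain of leukocytes, had 115.2 and 116.3 rpm in WT and 167.8 and 156.4 rpm in KO (log2 fold change 0.44 ± 0.10, edgeR adjusted p = 0.0554). Its region at the lower-coordinate end, chr10:77527801-77553000, did pass, with 102.1 and 106.5 rpm in WT and 150.9 and 143.4 rpm in KO (log2 fold change 0.38 ± 0.09, edgeR adjusted p = 0.0255), and ended without WT replicate 1 or KO replicate 1. Of 9 tested granulocyte and monocyte markers, whose cells carry beta2 integrins, 4 rose and 5 did not pass. Markers of other leukocytes are given above, and the part of any of these markers in this result was not tested. Itgax (alphaX, of dendritic cells and macrophages) and Itgad (alphaD) had log2 fold changes of 0.21 and 0.57 with edgeR adjusted p of 0.46 and 0.177. At the Itgax start 35.2 and 35.9 rpm in WT stood beside 38.6 and 36.7 rpm in KO, a difference of -0.04 on the log2 scale after scaling.

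Itgal, the alpha chain of LFA-1, shows how the split of islands sets a gene value. Its gene window held 38.5 and 78.3 rpm in WT and 59.8 and 27.6 rpm in KO, which overlap. The region that covers its lower-coordinate end and reaches the neighbouring Sephs2 held 189.1 and 164.6 rpm in WT and 183.6 and 177.4 rpm in KO, close in all libraries (log2 fold change -0.08 ± 0.08, edgeR adjusted p = 0.497). Itgad also had a small island at its lower-coordinate end in both KO libraries (4.47 and 7.10 rpm) and in neither WT library.

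In the alpha4, alphaE and beta7 class, Itgb7, which pairs with alpha4 in gut homing, had 46.9 and 50.7 rpm in WT and 31.7 and 37.0 rpm in KO (log2 fold change -0.56, edgeR adjusted p = 0.0604). Its 5' region, chr15:102230201-102237400, shared with the neighbouring Rarg, passed with 35.7 and 38.1 rpm in WT and 24.5 and 26.2 rpm in KO (log2 fold change -0.67 ± 0.15, edgeR adjusted p = 0.0214), and of the fits without 1 library held only in that without WT replicate 1. Itgae (alphaE, which binds E-cadherin) had its strongest evidence in a region shared with Haspin, with 47.0 and 36.3 rpm in WT and 62.5 and 59.3 rpm in KO. The groups did not overlap there, and the test did not pass (log2 fold change 0.44 ± 0.14, edgeR adjusted p = 0.0546). Islands of that region covered 6.4 and 4.2 kb in WT and 12 and 11.4 kb in KO. Per covered length its sign turned, to -0.74, and the test did not pass.

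Among the collagen receptors, Itga1 had 2 tested regions, and the one at its start passed. This 5' region, chr13:115093601-115103200, held 8.90 and 12.2 rpm in WT and 35.8 and 39.4 rpm in KO. It rose by a log2 fold change of 1.69 ± 0.22 (edgeR adjusted p = 0.00276), the largest of the 35 integrin regions tested, and held in each of the 4 fits without 1 library. The rise went with longer islands, which covered 2.4 and 2.6 kb in WT and 9.4 and 7.2 kb in KO. The log2 fold change per covered length was 0.0017 and did not pass. The next region, 9 to 18 kb into the gene, which also meets Pelo, held 63.7 and 65.7 rpm in WT and 64.1 and 72.6 rpm in KO (log2 fold change -0.04 ± 0.11, edgeR adjusted p = 0.802). UTX islands of both libraries lay in that second region and none at the Itga1 start.

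Most H3K27ac reads of Itga1 in WT lie in the region shared with Pelo, and the whole gene did not pass (72.6 and 77.9 rpm in WT, 99.8 and 111.9 rpm in KO, edgeR adjusted p = 0.0688). Itga2, the alpha chain of the collagen receptor of platelets, had 5 tested regions and 0 passed. The smallest p was that of the region 84 to 89 kb from its start, with 10.6 and 12.1 rpm in WT and 9.96 and 6.47 rpm in KO (log2 fold change -0.58 ± 0.29, edgeR adjusted p = 0.196). Itga10 had islands in WT replicate 2 (3.74 rpm) and KO replicate 1 (8.74 rpm) only, and Itga11 had no H3K27ac.

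Of the laminin receptors, Itga6 (alpha6, also a surface marker of stem cells) fell at its lower-coordinate end, chr2:71784801-71791200, from 34.3 and 22.1 rpm in WT to 15.9 and 18.5 rpm in KO (log2 fold change -0.82 ± 0.23, edgeR adjusted p = 0.043). Of the fits without 1 library the call held only in that without WT replicate 2. Regions inside Itga6 did not pass, and the whole gene did not (97.2 and 72.8 rpm in WT, 62.4 and 75.4 rpm in KO, which overlap). Itgb4, the beta chain of hemidesmosomes, had its called region beyond its upper-coordinate end, where the region also meets Galk1. It held 18.9 and 15.5 rpm in WT and 26.9 and 30.8 rpm in KO (log2 fold change 0.63 ± 0.18, edgeR adjusted p = 0.045). Its call ended in each fit without 1 library. Itga3 had H3K27ac only in a flanking region that also meets Pdk2, and Itga7 had none.

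Itgb5, a partner of alphav, had 115.5 and 233.5 rpm in WT and 190.9 and 105.5 rpm in KO as a whole gene, and the groups overlap (edgeR adjusted p = 0.706). As at Itgal, that value depends on which islands reach the window: the whole region at its 3' end, shared with Umps, held 114.2 and 123.2 rpm in WT and 112.8 and 109.6 rpm in KO, close in all libraries. At its 5' end, chr16:33829401-33834800, islands of 15.9 and 14.9 rpm were present in WT and none in KO. A second region, 28 to 34 kb into the gene, had 10.5 and 8.65 rpm in WT and none in KO. Among its 5 tested regions the smallest p was at 89 to 95 kb, with 39.4 and 28.8 rpm in WT and 28.0 and 24.8 rpm in KO (log2 fold change -0.47 ± 0.19, edgeR adjusted p = 0.112). H3K27me3 was present over the Itgb5 start in all 4 libraries, so in WT both marks were called over the same start. Of the remaining beta chains, Itgb6 had no H3K27ac, Itgb8 had an island in KO replicate 1 only (7.92 rpm), and Itgb2l had islands in 3 libraries (6.32 and 4.13 rpm in WT, 13.9 and 0 rpm in KO). Itga8, which binds nephronectin, did not pass (29.4 and 48.1 rpm in WT, 54.6 and 46.3 rpm in KO, edgeR adjusted p = 0.478).

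**Figure D4:**
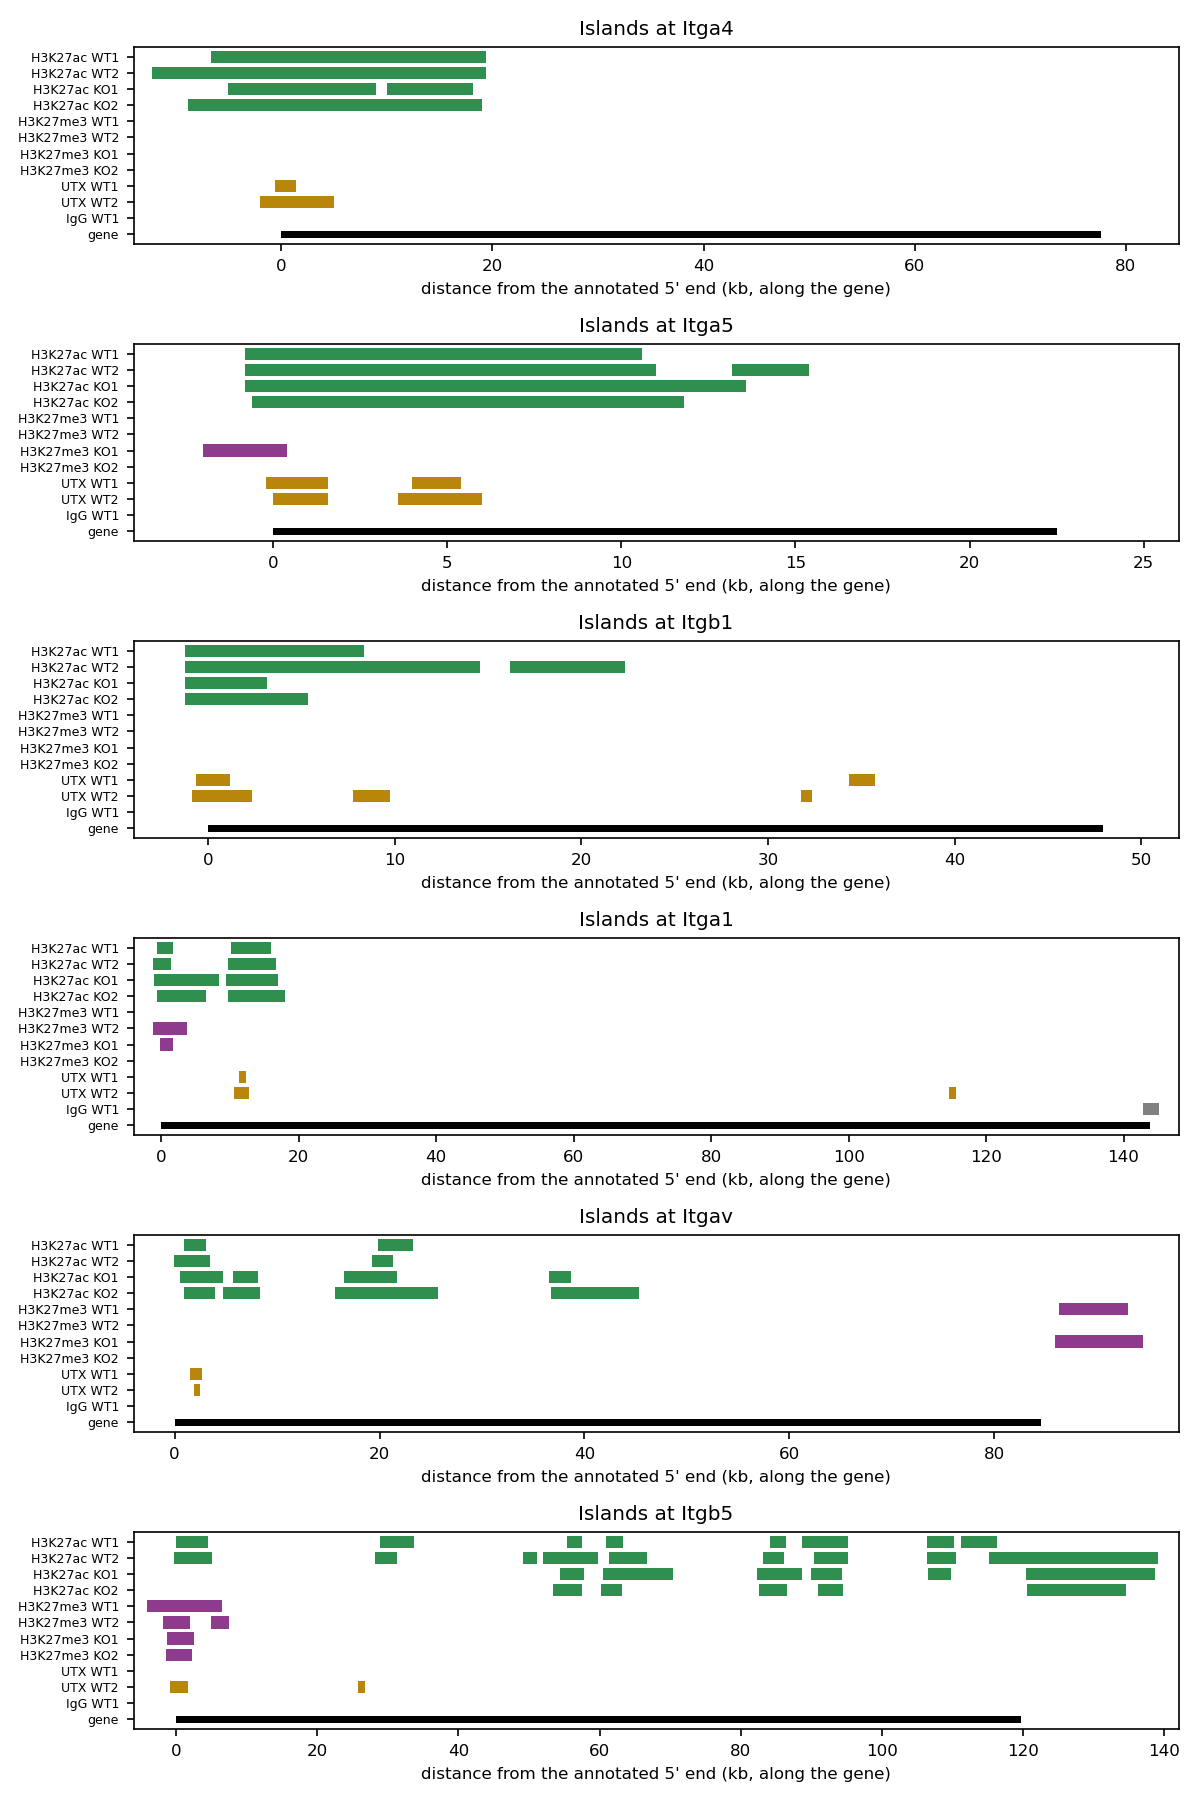
Islands in each library (green H3K27ac, purple H3K27me3, ochre UTX, grey IgG) at 6 integrin genes against distance from the annotated 5' end in kb along the gene, with the gene as a black bar; islands that do not meet the gene span plus 2 kb are not drawn. At Itgb1 the H3K27ac islands of the start are shorter in both KO libraries, at Itga1 longer, at Itgav more are called in KO, and at Itgb5 the H3K27ac island at the start is called in WT alone beside H3K27me3 in all 4 libraries.

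Counted over regions, H3K27ac islands at integrins merged into 57 regions in 21 genes, and 35 regions in 18 genes had an island in all 4 libraries. Of the 35 tested, 6 rose, where 11.7% of all regions tested did, and 5 fell, where 14.0% did. The median log2 fold change was 0.17 against -0.0038 over all regions. Of the 57, 3 were present in both WT and neither KO library (9.28% of all regions) and 3 the reverse (5.18%). These shares lie near the background for regions, and 10 of the 57 regions also meet another gene.

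Reads summed over islands grow with the length of the islands. In 4 of the 6 regions that rose, islands were longer in both KO libraries than in either WT library, and in 2 of the 5 that fell they were shorter in both; the other 5 called regions showed neither. Divided by covered length, 0 of the 6 and 1 of the 5 passed. Over all regions that scaling called 85 higher and 283 lower, against 2209 and 2637 without it.

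**Figure D5:**
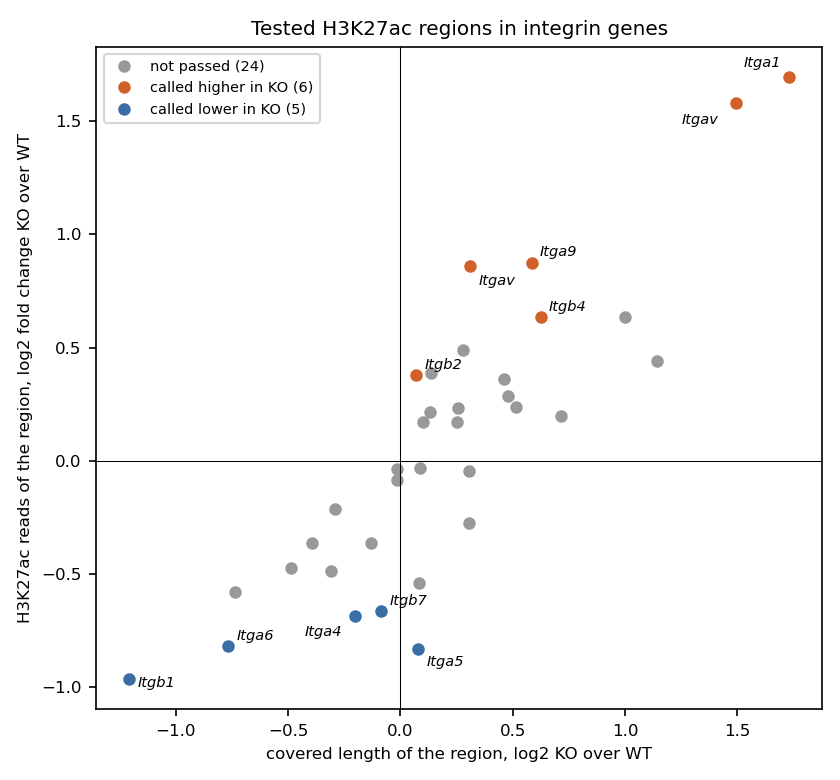
For the 35 tested H3K27ac regions of integrin genes, the log2 fold change of reads, KO over WT (y), against the log2 ratio of covered length, KO over WT (x); orange and blue points passed. Itga1 and the inner Itgav region lie high on both axes and Itgb1 low on both, while Itga5 fell in reads at nearly the same length.

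By UTX, 8 of the 35 tested regions met UTX islands of both libraries, whether or not those islands overlapped each other. Of these 8 regions 4 fell (Itga4, Itga5, Itga6 and Itgb1) and 2 rose (the Itgav start and the region beyond the upper-coordinate end of Itgb4). The other 2 did not pass (the Itgal region and the Pelo region in Itga1). UTX islands of the Itgb4 region (17 and 88 reads) lay outside the Itgb4 window. In the Itgal region that of replicate 2 (85 reads) lay outside the Itgal window. Over the genome 19.3% of regions with UTX fell and 9.3% rose. Of the 27 without such UTX islands, 1 fell (Itgb7) and 4 rose (Itga1, Itga9, Itgb2 and the inner Itgav region), where 10.7% and 13.3% did over the genome. A difference between integrins with and without UTX was not tested.

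H3K27me3 did not pass the test at any of the 9 integrins tested, and edgeR called 0 of 4910 genes in all (0.0% in either direction, 453 at an unadjusted p under 0.05; DESeq2 called 39 higher and 42 lower, none an integrin). Itga11, a collagen receptor of mesenchymal cells, had 401.7 and 215.0 rpm in WT and 157.6 and 191.5 rpm in KO. Both KO libraries lay below both WT libraries, which 15.7% of all genes tested showed. The log2 fold change was -0.91 (edgeR adjusted p = 0.541). That value ran from -1.34 to -0.30 without 1 library, and per covered length it was 0.18. Inside Itga11, at chr9:62714601-62730400, islands of 95.1 and 17.1 rpm were present in WT and none in KO. This was 1 of 29 H3K27me3 regions at integrins, where 6.5% of all regions were lost. Of 12 integrin regions tested 0 passed, against 0.0% higher and 0.0148% lower over all regions. Of the 15 integrin windows with H3K27me3 in any library, 0 lost all islands in KO and 0 gained their first, against 5.28% and 1.16% of all such windows.

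Itga9 had 77.3 and 131.1 rpm of H3K27me3 in WT and 166.1 and 169.5 rpm in KO (log2 fold change 0.64, edgeR adjusted p = 0.591). Islands were added 12 to 17 kb into the gene in both KO libraries (33.7 and 31.1 rpm) and were absent in WT, the 1 gained region at integrins (1.86% of all regions were gained). H3K27ac of Itga9, given above, was higher in KO over regions farther inside. Itgb5 had 83.8 and 61.9 rpm in WT and 49.0 and 47.1 rpm in KO (log2 fold change -0.68, edgeR adjusted p = 0.613). Per covered kilobase its region at the start held 7.91 and 9.67 rpm in WT and 12.9 and 12.4 rpm in KO, and the log2 fold change of the gene per covered length was 0.46.

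The other tested genes had log2 fold changes between -0.59 (Itgb4) and 0.48 (Itgad), with Itga3 at 0.20, Itga7 at -0.07, Itga8 at 0.47 and Itgb8 at 0.16. Of these, Itgad and Itgb8 had both KO libraries above both WT libraries, which 24.6% of all genes tested showed, and Itga9 was the third such integrin. Itga11 and Itgb5 were the tested integrins with both KO libraries below both WT libraries, against 15.7% of all genes tested. Islands in some libraries only were at Itga1, Itga5, Itga6, Itgav, Itgb2l and Itgb6. Itga2, Itga4, Itga10, Itgae, Itgal, Itgax, Itgb1, Itgb2 and Itgb7 had no H3K27me3 island in any library.

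Genes that work with integrins were read the same way. Of 71 listed partners 51 could be tested for H3K27ac, and 8 rose and 8 fell, with a median log2 fold change of 0.07. Over all genes tested 8.93% rose and 9.97% fell, with a median of 0.01, and nothing particular to the list or its groups is read from the counts. Among 26 activators and adhesion proteins 3 rose and 2 fell, among 6 inhibitors 1 rose and 1 fell, among 11 ligands 3 rose and 3 fell, and among 8 membrane partners 1 rose and 2 fell. For H3K27me3 0 of 28 passed.

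The 5 smallest adjusted p-values were at Dok1, Vcam1, Nedd9, Lamc1 and Ptk2. Dok1, an adaptor that competes with talin for integrin tails, had 308.0 and 320.1 rpm in WT and 40.4 and 45.6 rpm in KO, the largest fall of the list (log2 fold change -2.91 ± 0.11, edgeR adjusted p = 0.0073). Vcam1, the ligand of alpha4 with beta1, had 37.5 and 41.4 rpm in WT and 215.5 and 198.5 rpm in KO (log2 fold change 2.35 ± 0.13, edgeR adjusted p = 0.0092), opposite in sign to Itga4. Nedd9, a docking protein of focal adhesions, had 154.4 and 166.9 rpm in WT and 468.0 and 528.0 rpm in KO (log2 fold change 1.59 ± 0.11, edgeR adjusted p = 0.0109).

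Lamc1, a laminin chain, rose from 14.36 and 12.98 rpm to 40.2 and 45.7 rpm (log2 fold change 1.61 ± 0.13, edgeR adjusted p = 0.0124). Ptk2, which encodes focal adhesion kinase, fell from 26.7 and 31.4 rpm to 7.99 and 8.45 rpm (log2 fold change -1.87 ± 0.18, edgeR adjusted p = 0.0141). In each of these 5 genes, picked for the smallest adjusted p, the KO libraries lay apart from the WT libraries. Both KO libraries lay above both WT libraries at 37.6% of all genes tested and below them at 29.1%. These 5 genes were read as gene windows only, with each island counted whole, also where it reaches beyond the window. The part of neighbouring genes in their values was not tested. With reads divided by covered length 0 of all genes tested passed. The core activators talin-1 (Tln1) and kindlin-3 (Fermt3) did not pass, with log2 fold changes of -0.07 and 0.25; both were chosen for mention after their values were seen.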

How the data were processed

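Chromatin immunoprecipitation was measured in 11 libraries. A further 3 samples of the series, titled as an H3K27ac input, a UTX IgG control and a UTX input, were not used here. Per the submitters' processing notes, the authors called islands with SICER against mouse build mm10. Versions, aligner, gap and control are not given in the sources used here. The deposited files hold counts, the whole number of reads in each island, called in each library alone; reads outside islands were not analysed here, and counts cover what was called.

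Genes and promoter sequences were taken from RefSeq tables of GRCm38.p6 (the assembly of mm10). Counts of all islands meeting a gene span plus 2 kb by at least 1 bp were summed, with an island counted whole, and fitted over all genes with an island in all 4 libraries of a mark. Islands of the 4 libraries were also merged where they overlapped and tested as regions. The test was edgeR 4.0.16 in R 4.3.3 (the quasi-likelihood functions glmQLFit and glmQLFTest after TMM scaling; two-sided, with calls at a Benjamini-Hochberg adjusted p under 0.05), with 2 libraries per group; an exact permutation test of 2 against 2 cannot go below 0.333. The SE was taken from the F statistic. Tested on simulated counts, the fit over 12350 H3K27ac genes recovered 47% of genes changed by 1 on the log2 scale and 100% of those changed by 2. Over 4910 H3K27me3 genes these were 14% and 94%.

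The integrins, partner lists, markers and motifs were chosen with earlier results of these data known, so no p-value is adjusted over a list alone. Every integrin is named. Full values go to those that passed, were lost or gained, to the strongest region of genes with several, and to the 5 partners with the smallest adjusted p. Alternatives were DESeq2 1.42.0, no TMM, islands in 2 libraries, at least 50 reads, islands below the 0.25 quantile of reads per kb removed, reads per covered length, a replicate block, each library left out, other flanks and reads in proportion to overlap.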

Additional observations from a re-analysis of the deposited data

How the results depend on the processing

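Integrins passing for H3K27ac at gene level (2 higher, 2 lower) became 4 and 4 with DESeq2, 0 and 0 per covered length, 0 and 0 with the replicate block (396 higher and 638 lower over all genes), and between 0 and 1 higher and 0 lower without 1 library, where the lone library of a group is assumed to vary like the others. With a flank of 5 kb 1 was lower. Regions (6 higher, 5 lower) became 0 and 1 per covered length, and as few as 3 higher (without KO replicate 1) and 3 lower (without either KO replicate). Equal replicate numbers did not deviate together (correlations between -0.051 and 0.046), which cannot tell whether they share an animal or a preparation. With the replicate block the edgeR adjusted p of the 4 called genes lay between 0.0515 and 0.0617. Counts for H3K27me3, island presence and UTX stayed within 1.5 times under the alternatives run.

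Signs turned per covered length in H3K27ac at Itga8 (-0.10), Itgav (-0.31), Itgax (-0.0067), Itgad (-0.19), Itgb1 (0.46, its region 0.25), Itgae (-0.55), Itga1 (-0.41) and Itgb5 (0.011), and in H3K27me3 at Itga11 (0.18), Itga3 (-0.090) and Itgb5 (0.46). In the fits without 1 library, log2 fold changes of H3K27ac ran from -0.0075 to 0.76 at Itga8, from -1.16 to 0.17 at Itgal, from -0.80 to 0.34 at Itgb5 (0.090 without KO replicate 2), from -0.017 to 0.39 at Itgax and from -0.29 to 0.62 at Itga2. Those of H3K27me3 ran from -1.03 to 0.044 at Itgb4, from -0.17 to 0.68 at Itga3 (-0.024 without KO replicate 2), from -0.17 to 0.91 at Itga8 and from -0.29 to 0.12 at Itga7. Stricter islands gave -0.14 for H3K27me3 at Itga8, and reads in proportion to overlap -0.58 at Itga3. The cause was not tested. Of the values of single genes and regions under alternatives, 396 kept direction and side, 55 lost a call, 7 gained one and 25 turned sign. Without TMM the median of all H3K27ac regions was 0.12, and the split of calls over all regions was 3268 higher and 2069 lower, against 2209 and 2637 with it.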
